A study of Mus musculus with 6 samples.

Results

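The genes described here encode the NRF2 pathway and the glutathione and thioredoxin systems of mouse group 2 innate lymphoid cells (ILC2s). They were 35 named genes, all 35 of which were present among the 25865 genes of the deposited expression table. They were taken by symbol as the controllers of NRF2, its best known target enzymes, the enzymes that make and use glutathione, the thioredoxins with their reductases, the peroxiredoxins, the superoxide dismutases and catalase. The rule uses no measured value.

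ILC2s reside in tissues, lack antigen receptors and make the cytokines of type 2 immunity. Here they came from the colon of C57BL/6 mice and were sorted, then kept for 5 days in complete IMDM that held 10 ng/mL of each of 4 cytokines (IL-33, IL-25, IL-7 and IL-2). A group of 3 samples was then treated with toyocamycin for 16 h, and a group of 3 samples, called Control, with vehicle, for which no time is recorded. No dose, mouse age or genetic modification is stated in the labels. The strain, the culture and the cytokines were common to both groups. Toyocamycin, a nucleoside related to adenosine, is known as an inhibitor of ribosomal RNA processing and of the IRE1 endoribonuclease. No label says whether the replicates came from separate mice or cultures, so a p-value reflects the scatter of these 6 samples alone, and that scatter may be technical.

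NRF2, encoded by Nfe2l2, is a transcription factor that the adaptor KEAP1 hands to a CUL3 ubiquitin ligase for destruction in unstressed cells. Electrophiles and oxidants free it from KEAP1, and it then pairs with a small MAF protein and binds antioxidant response elements, a site that the repressor BACH1 also occupies. Glutathione and thioredoxin are the main thiol reductants of the cell. Both draw their electrons from NADPH, and both are used by proliferating lymphocytes, whose metabolism yields peroxides.

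Values are normalised read counts, which are reads per gene divided by 1 scaling factor per sample. They measure RNA, and these data hold no measure of protein level or activity. Each sample had 22.3 M to 36.7 M reads assigned to genes. All 11 ILC2 markers examined were measured, with summed levels of 425500 to 438100 in Control and 358000 to 389000 with toyocamycin. That sum joins markers that moved far in opposite directions: Rora rose 13.1-fold and Gata3 2.02-fold, while Il13 fell 6.95-fold, Il7r 2.98-fold, Areg 2.52-fold and Klrg1 2.41-fold. Markers of macrophages and dendritic cells, which also use these pathways, summed to 885.5 to 1288 and 1082 to 1557 (6 of 6 markers measured, Adgre1 at means of 1.17 and 2.25). Fibroblast and endothelial markers summed to 1255 to 1404 and 698.7 to 883.9 (5 of 5), B cell markers to 361.5 to 464.3 and 182.1 to 212.6 (5 of 5), ILC3 markers to 613.4 to 690.7 and 502.7 to 539.5 (4 of 5), T cell markers, mostly Cd3g, to 190.4 to 216.8 and 194.3 to 245.6 (7 of 7) and epithelial markers to 159.7 to 216.6 and 182.2 to 194.8 (4 of 5). NK cell and ILC1 markers summed to at most 10.53 (3 of 5) and mast cell markers to at most 17.22 (3 of 5), and Krt20 and Fcer1a were at 0 in all samples. The part of these cells in the changes below was not tested, and fewer cells of a type and less RNA per cell cannot be told apart in bulk samples.

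Toyocamycin and Control samples differed in most of the redox genes, but not in 1 direction. Of the 35 genes, 17 were higher with toyocamycin, 13 were lower and 5 did not pass limma's test at an adjusted p under 0.05. Nfe2l2 itself, Bach1, the glutathione synthesis gene Gclc, the peroxidase genes Gpx1 and Prdx6, and Txnip, an inhibitor of thioredoxin, rose by 2.16-fold to 4.43-fold. The classical NRF2 target Nqo1 and the genes Srxn1, Prdx2, Txnrd2 and Blvrb fell by 2.4-fold to 4.49-fold. These counts read against a background in which 65.9% of the 16223 genes tested were called, 32.8% higher and 33.1% lower, so the share of redox genes called (30 of 35) says little by itself. That background includes genes of few reads, which are called less often. Of the 12913 genes with a mean of at least 10, which all 35 redox genes reach, 5080 were higher and 5097 lower. Groups did not overlap in 31 of the 35 genes, against 69.1% of all genes. A called change of at least 2-fold (log2 change of 1) was found in 15 of them, 10 higher and 5 lower, and in 37.5% of all genes, 17.0% higher and 20.5% lower.

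The median log2 change of the redox genes was 0.098, against −0.026 over all genes tested. Their median size of change was 0.812, close to the 0.87 of all genes, and 19 of them changed less than the median gene. With the samples set to equal totals the median of all genes moved to −0.347, and the redox genes split into 15 higher and 17 lower (all genes: 36.9% of calls higher in place of 49.7%). Corrected for GC content and length, the values gave 20 higher and 10 lower. The call and direction of 23 genes held in each of the 18 alternative treatments of the data, and the other 12 are named with their groups.

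**Figure D1:**
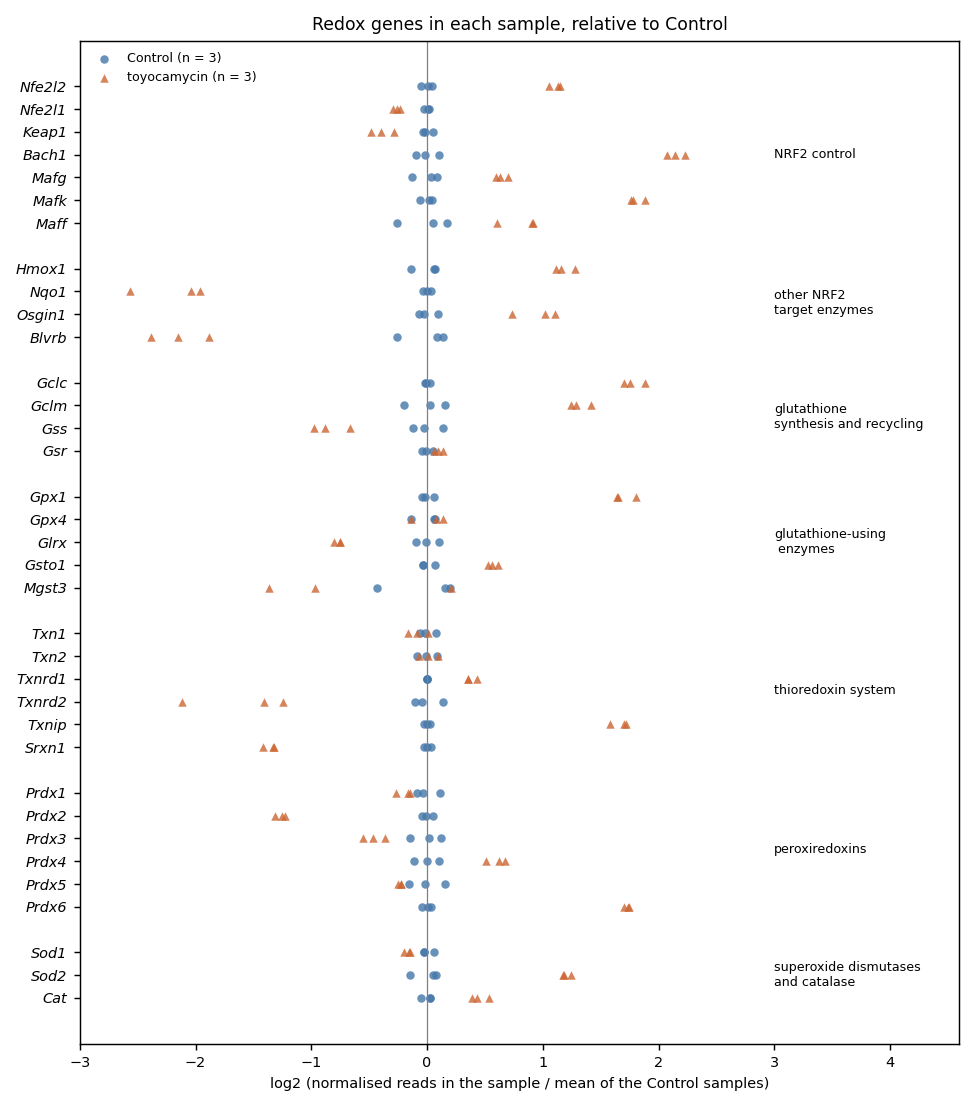
Each point is 1 sample, placed by the log2 ratio of its normalised reads to the Control mean of that gene, with Control as circles and toyocamycin as triangles. The toyocamycin and Control points do not overlap in 31 of the 35 genes, against 69.1% of all genes. In Gsr they nearly touch, with a highest Control value of 4058 and a lowest toyocamycin value of 4069. The toyocamycin points lie to the right for Bach1, Gclc and Prdx6 and to the left for Nqo1, Blvrb and Txnrd2.

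To set the expression values beside regulatory sequence, the promoters in RefSeq (GRCm38.p6, a patch release of the assembly also called mm10) were searched for the core of the antioxidant response element, TGACNNNGC, on both strands. Windows reach from 250 bases before to 50 bases after a start site, and 31 of the 35 genes had at least 1. Of these 31, 9 held a match (29.0%), where 16.7% of the 12183 tested genes with a window did. Counted by window, it was 9 of 44 (20.5%) against 12.4% of all 32851 windows. The 9 genes were Nfe2l2, Mafg, Mafk, Maff, Gclm and Txnrd1, which were higher with toyocamycin, and Prdx1, Sod1 and Srxn1, which were lower. Among the 22 genes with a window and no match, 8 were higher, 10 lower, Nqo1 among them, and 4 did not pass. Hmox1, Gclc and Prdx6, which were higher, and Gsr, which did not pass, had no window and enter neither tally. The tallies therefore do not compare directions over all 35 genes. Of all genes tested, 32.8% were higher and 33.1% lower. A match describes letters and is not a binding site. A gene without a match, Nqo1 included, may hold the motif outside the windows, where no search was made.

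Sequences around 6 of these matches are printed because the matched genes went in both directions. They run 5′ to 3′ on the strand of the gene, and capitals mark the match, which is the reverse complement of the motif wherever it ends in TCA. Nfe2l2 is shown at chr2:75704855-75704913 (minus strand), Mafg at chr11:120633721-120633797 (minus strand), Gclm at chr3:122245383-122245471, Txnrd1 at chr10:82859074-82859162, Prdx1 at chr4:116685426-116685514 and Srxn1, where the match lies 29 bases into the transcript, at chr2:152105542-152105570, the last 4 on the plus strand. The Txnrd1 window belongs to 1 of the 3 start sites listed for the gene.
Nfe2l2: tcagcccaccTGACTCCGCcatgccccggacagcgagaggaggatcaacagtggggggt
Mafg: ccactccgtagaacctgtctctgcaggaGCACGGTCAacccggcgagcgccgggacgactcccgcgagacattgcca
Gclm: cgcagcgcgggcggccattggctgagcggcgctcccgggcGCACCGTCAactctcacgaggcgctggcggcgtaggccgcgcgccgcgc
Txnrd1: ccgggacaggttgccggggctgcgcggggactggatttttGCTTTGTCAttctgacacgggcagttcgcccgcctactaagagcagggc
Prdx1: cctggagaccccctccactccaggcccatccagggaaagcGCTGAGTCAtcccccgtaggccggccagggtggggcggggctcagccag
Srxn1: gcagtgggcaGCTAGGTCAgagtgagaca

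Within the NRF2 control module, the genes for the activator and its competitor rose together while the gene for the NRF2 inhibitor fell. Nfe2l2 (chromosome 2, 75675513 to 75704663) had 3151, 3078 and 2960 normalised reads in Control and 6710, 6785 and 6345 with toyocamycin. The 2 ranges lay far apart, and the change was 2.16-fold (log2 change 1.11, SE 0.053, adjusted p = 5.81e-14). Bach1 (chromosome 16, 87698954 to 87733346), the repressor that competes for the same sites, had 1019, 1103 and 964.6 in Control and 4814, 4534 and 4331 with toyocamycin. No toyocamycin sample came near the Control range, a 4.43-fold rise and the largest in either direction on the fold scale after Nqo1 among the 35 genes (log2 change 2.15, SE 0.065, adjusted p = 4.25e-17). Keap1, on chromosome 9, had 1324, 1394 and 1308 in Control and 1020, 1098 and 958 with toyocamycin. That 1.31-fold fall (log2 change −0.39, adjusted p = 6.46e-05) was absent after the GC content and length correction, which gave 0.006. An antisense gene, Gm16754, overlaps 510 bases of Keap1 exons, and it also fell, from 55.3 ± 4.59 to 24.2 ± 6.2 (SD, n = 3).

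All 3 genes for the small MAF proteins, which have no activation domain and serve as partners of both NRF2 and BACH1, rose. Mafk had 1155, 1238 and 1221 in Control and 4140, 4453 and 4093 with toyocamycin, a 3.51-fold rise (log2 change 1.81, SE 0.06, adjusted p = 1.74e-16). Mafg rose 1.56-fold, from 1338 ± 102 to 2086 ± 78.1, and Maff 1.76-fold, from 107 ± 16.1 to 187 ± 22.1 (SD, n = 3). Maff was the least expressed of the 3 by reads, with 98 to 191 recovered reads per sample. Nfe2l1, which encodes the related factor NRF1 that is known for driving proteasome genes, went the other way, from 5474 ± 85.3 to 4564 ± 92.5 (1.2-fold, log2 change −0.26, adjusted p = 8.7e-05). The fall of Nfe2l1 did not pass after the GC content and length correction (log2 change −0.066, adjusted p = 0.276). Of the 7 control genes, 5 were higher and 2 lower, where 32.8% of all genes were higher and 33.1% lower.

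Ratios within a sample are free of the scaling factor and show the shift between partners directly. They were chosen after the values were seen and are given as a description without a test. Nfe2l2 had 2.28 ± 0.0879 times the reads of Keap1 in Control and 6.46 ± 0.244 times with toyocamycin. Bach1 reads were 0.336 ± 0.0195 of Nfe2l2 reads in Control and 0.689 ± 0.0253 with toyocamycin, so the repressor transcript rose more than the activator transcript. In each of the 11 pairs examined, the 3 Control ratios and the 3 toyocamycin ratios did not overlap. Choosing pairs from values already seen favours such a separation, so it adds no support to the single-gene changes.

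**Figure D2:**
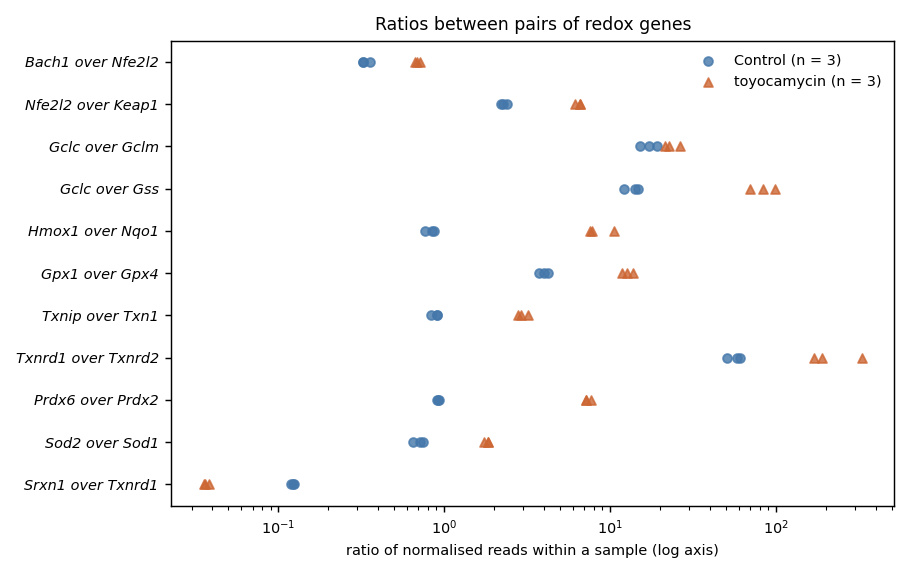
Points give the ratio of normalised reads of 2 genes within each sample, on a log axis, with Control as circles and toyocamycin as triangles. Hmox1 over Nqo1 moved most, from a mean of 0.826 to 8.66, and Gclc over Gclm least, from 17.2 to 23.6.

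Of 4 other target genes of NRF2, for enzymes of heme and quinone metabolism and the growth inhibitor OSGIN1, 2 rose and 2 fell. The shares over all genes tested were 32.8% higher and 33.1% lower. Hmox1 (chromosome 8, 75093618 to 75100593), which encodes the heme-degrading enzyme heme oxygenase 1 and is repressed by BACH1 in many cells, had 1214, 1400 and 1395 normalised reads in Control and 2979, 3234 and 2890 with toyocamycin. All 3 toyocamycin values lay above 2 times the highest Control value, and the rise was 2.27-fold (log2 change 1.18, SE 0.068, adjusted p = 1.54e-12). Nqo1 (chromosome 8, 107388225 to 107403205) encodes a quinone reductase that is widely used as a readout of NRF2 activity. It had 1580, 1611 and 1656 in Control and 392.2, 415 and 273.2 with toyocamycin, a 4.49-fold fall (log2 change −2.19, SE 0.115, adjusted p = 3.32e-13). Toyocamycin replicate 3 was the lowest, and without it the log2 change was −2.00. Hmox1 reads were 0.826 ± 0.052 of Nqo1 reads in Control and 8.66 ± 1.67 times them with toyocamycin.

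Osgin1, an oxidative stress-induced growth inhibitor, rose 1.95-fold from 328 ± 19 to 638 ± 82.2 (log2 change 0.95, adjusted p = 1.21e-07). Blvrb, which encodes a flavin reductase that also reduces the beta isomer of biliverdin, had 81.5, 104 and 107 normalised reads in Control and 26.4, 18.6 and 21.9 with toyocamycin. Its 4.37-fold fall rested on 18 to 122 reads per sample (log2 change −2.08, SE 0.309, adjusted p = 4.11e-06). Blvra, outside the 35 genes, encodes the reductase of the biliverdin that heme oxygenase makes, and it fell 1.42-fold from 791 ± 47.8 to 559 ± 78.3 (log2 change −0.51, adjusted p = 0.000137).

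In glutathione synthesis, the genes for the rate-limiting enzyme rose and the gene for the enzyme of the last step fell. Gclc (chromosome 9, 77754535 to 77794489), the catalytic subunit of glutamate-cysteine ligase, had 4530, 4694 and 4573 in Control and 14980, 15500 and 16960 with toyocamycin, a 3.44-fold rise (log2 change 1.78, SE 0.053, adjusted p = 3.69e-17). Gclm, the regulatory subunit, rose 2.49-fold from 234.7, 273.8 and 301 to 659, 718.2 and 639.9 (log2 change 1.32, SE 0.112, adjusted p = 9.32e-10). Gss, glutathione synthetase, fell 1.78-fold from 374.2, 332.6 and 311.6 to 213.9, 184.6 and 172.4 (log2 change −0.83, SE 0.138, adjusted p = 1.75e-05). No sample of one group reached the range of the other in any of these 3 genes.

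Per kilobase of mRNA, Gclc was far above its partner in Control, at 1344 normalised reads per kb against 48.3 for Gclm, and both rose, to 4619 and 120. Gclc reads were 13.6 ± 1.35 times those of Gss in Control and 84.1 ± 14.2 times with toyocamycin (SD, n = 3, not per length). Gsr, the reductase that regenerates glutathione with NADPH, was at 3913 ± 133 and 4189 ± 123 (log2 change 0.098, 95% interval −0.012 to 0.209, adjusted p = 0.112). Its small difference had no stable direction, with a log2 change of −0.251 in samples of equal totals and 0.169 after the GC content and length correction, each of which passed.

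Genes for enzymes that use glutathione were also divided. Gpx1 (chromosome 9, 108339080 to 108340342), a selenoprotein that reduces hydrogen peroxide in the cytosol and mitochondria, had 3775, 3525 and 3574 in Control and 11290, 12650 and 11370 with toyocamycin. The rise was 3.25-fold (log2 change 1.70, SE 0.055, adjusted p = 1.26e-16), and it made Gpx1 the most abundant of the 35 transcripts per kilobase with toyocamycin (10980 per kb, from 3381). Gpx4, the selenoprotein that removes lipid hydroperoxides and guards against ferroptosis, stayed within the spread of the replicates at 909 ± 71.2 and 927 ± 92.3 (log2 change 0.026, 95% interval −0.155 to 0.208, adjusted p = 0.81). Its direction was lower with equal totals (−0.322) and higher after the GC content and length correction (0.339), with both called. Pseudogene copies match 73.7% of the Gpx4 mRNA at 95% identity or more, so its reads are uncertain.

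Glrx, glutaredoxin 1, which removes glutathione from proteins, fell 1.7-fold from 1966 ± 134 to 1155 ± 22.3 (log2 change −0.77, adjusted p = 1.55e-09). Gsto1, a transferase of the omega class, rose 1.48-fold from 595 ± 24.9 to 881 ± 27 (log2 change 0.57, adjusted p = 2.57e-06). Mgst3, a microsomal transferase, was the least abundant of the 35, at 11 to 36 reads per sample. It had 32.6, 21.1 and 31.6 in Control and 14.5, 11 and 32.8 with toyocamycin, and the overlapping groups did not pass (adjusted p = 0.228); without toyocamycin replicate 3 the log2 change was −1.08 and passed (adjusted p = 0.0439).

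Neither thioredoxin gene passed the test, while the inhibitor Txnip rose and the mitochondrial reductase Txnrd2 fell. Txn1, cytosolic thioredoxin, was at 2410 ± 116 in Control and 2283 ± 133 with toyocamycin (log2 change −0.079, 95% interval −0.208 to 0.051, adjusted p = 0.281). The difference passed as lower in 4 of the alternative scalings and tests, among them equal totals (−0.428, adjusted p = 9.24e-07) and edgeR on the recovered reads (−0.117, adjusted p = 0.0458), and also after the GC content and length correction. A pseudogene matches 29.3% of its mRNA. Txn2, mitochondrial thioredoxin, was at 1869 ± 113 and 1887 ± 106 (log2 change 0.014, 95% interval −0.123 to 0.152, adjusted p = 0.864). Equal totals made it lower (−0.334) and the GC content and length correction higher (0.331).

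Txnip (chromosome 3, 96557957 to 96561857) encodes the thioredoxin-interacting protein, which binds reduced thioredoxin and also limits glucose uptake. It had 2087, 2160 and 2118 in Control and 6338, 6985 and 6911 with toyocamycin. Each toyocamycin sample was more than 2 times every Control sample, and the rise was 3.18-fold (log2 change 1.67, SE 0.055, adjusted p = 1.61e-16). Txnip reads were 0.882 ± 0.0402 of Txn1 reads in Control and 2.96 ± 0.219 times them with toyocamycin. The antisense gene Gm15441 overlaps 606 bases of Txnip exons, but it had only 1.46 ± 2.53 and 6.72 ± 5.01 normalised reads.

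The Txnip promoter holds 2 CACGNG half-sites that are 5 bases apart, the pattern of a carbohydrate response element, through which the glucose-sensing pair MondoA (Mlxip) and MLX is known to drive this gene. The match begins 85 bases before the start site, and 16 of the 32851 windows searched on both strands held one (0.0487%). Because the element was already known in Txnip, finding it here was not a test, and the share only describes the pattern. It is printed from chr3:96557832-96557928, plus strand, with the match in capitals.
Txnip: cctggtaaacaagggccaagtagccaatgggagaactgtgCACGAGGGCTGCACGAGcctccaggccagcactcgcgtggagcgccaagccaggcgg

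The genes for the reductases that keep thioredoxin reduced moved apart. Txnrd1, the cytosolic selenoenzyme and by reads per kilobase the most abundant of the 35 transcripts in Control (3713 per kb), had 13450, 13430 and 13470 in Control and 17140, 18110 and 17160 with toyocamycin. The rise was 1.3-fold (log2 change 0.38, SE 0.048, adjusted p = 4.46e-07), but it was near 0 with equal totals (0.028, adjusted p = 0.426). With quantile normalization it turned to a called fall (−0.114, adjusted p = 0.00249). Txnrd2, the mitochondrial reductase, had 222, 263.3 and 231.7 in Control and 89.8, 55 and 101 with toyocamycin. Its 2.92-fold fall (log2 change −1.58, SE 0.214, adjusted p = 1.18e-06) kept its direction and call in all 18 alternatives. Srxn1, sulfiredoxin, which repairs over-oxidised peroxiredoxins and is a known NRF2 target, fell 2.56-fold from 1684, 1613 and 1641 to 652.4, 658.9 and 614.4 (log2 change −1.36, SE 0.071, adjusted p = 3.04e-13).

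**Figure D3:**
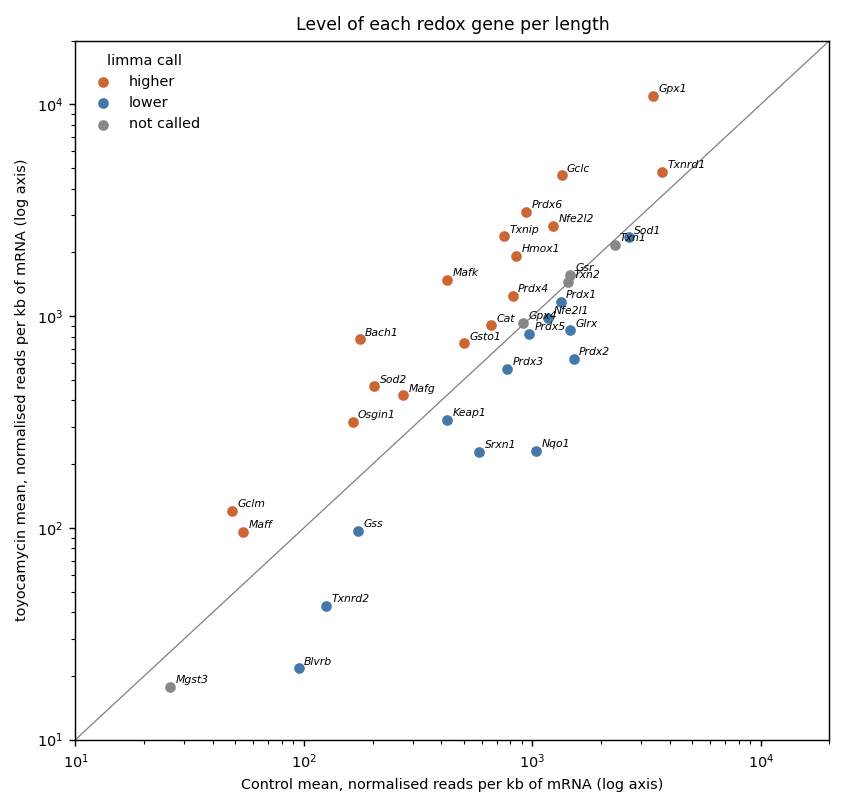
Each point is 1 gene, with the mean level in Control on the horizontal axis and with toyocamycin on the vertical axis, both in normalised reads per kilobase of mRNA on log axes, and the line marks equal levels. Gpx1 rose from 3381 to 10980 per kb, while Nqo1 fell from 1041 to 232.

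All 6 peroxiredoxin genes passed the test, 2 as higher and 4 as lower, where 65.9% of all genes were called. They encode thiol peroxidases, most of which are reduced by thioredoxin. Prdx6 (chromosome 1, 161240112 to 161251210), the single-cysteine member that uses glutathione and also has phospholipase activity, had 2178, 2247 and 2294 in Control and 7530, 7452 and 7302 with toyocamycin. The 3.32-fold rise (log2 change 1.73, SE 0.051, adjusted p = 3.54e-17) came with coefficients of variation of 2.6% in Control and 1.56% with toyocamycin. Prdx2, an abundant cytosolic peroxiredoxin on chromosome 8, went the opposite way, from 2365, 2425 and 2538 to 983.9, 1040 and 1024 (2.4-fold, log2 change −1.27, SE 0.063, adjusted p = 1.39e-13). Prdx6 reads were 0.917 ± 0.0118 of Prdx2 reads in Control and 7.32 ± 0.291 times them with toyocamycin. The antisense neighbour Rnaseh2a overlaps 154 bases of Prdx2 exons and fell as well, from 505 ± 41.1 to 144 ± 21.8. With Junb and a pseudogene it covers 57.5% of the Prdx2 mRNA used here, so reads of Prdx2 are uncertain.

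Prdx4, the peroxiredoxin of the endoplasmic reticulum, rose 1.52-fold from 813 ± 60.2 to 1237 ± 70.3 (log2 change 0.61, adjusted p = 5.84e-07). Prdx3, which is confined to mitochondria, fell 1.38-fold from 1147 ± 106 to 834 ± 52.9 (log2 change −0.46, adjusted p = 4.55e-05). Prdx1 and Prdx5 fell by small amounts, from 3057 ± 225 to 2675 ± 115 (log2 change −0.19, adjusted p = 0.01) and from 1222 ± 135 to 1039 ± 12.2 (log2 change −0.23, adjusted p = 0.0149). The Prdx1 call ended without Control replicate 3 (adjusted p = 0.0791) or toyocamycin replicate 3 (adjusted p = 0.0676). That of Prdx5 ended without Control replicate 1 (−0.235), Control replicate 3 (−0.147) or toyocamycin replicate 1 (−0.219), and its direction was 0.129 after the GC content and length correction. Pseudogenes match 26% of the Prdx1 mRNA, and Trmt112, which rose, shares 409 antisense bases with Prdx5.

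Of the genes for enzymes that remove superoxide and hydrogen peroxide, that for the mitochondrial dismutase changed most. Sod2 (chromosome 17, 13007839 to 13018119) had 1078, 1237 and 1259 in Control and 2686, 2712 and 2817 with toyocamycin, a 2.3-fold rise in which the lowest treated sample was above 2 times the highest Control sample (log2 change 1.20, SE 0.067, adjusted p = 9.37e-13). Sod1, the cytosolic copper-zinc dismutase, was slightly lower, from 1693 ± 57.5 to 1508 ± 31.1 (log2 change −0.17, adjusted p = 0.0235), a call that ended without Control replicate 3 (adjusted p = 0.0817) and after the GC content and length correction (adjusted p = 0.0904). Cat, which encodes the peroxisomal catalase, rose 1.37-fold from 1730 ± 50.4 to 2370 ± 127 (log2 change 0.45, adjusted p = 1.19e-06), but did not pass with equal totals (0.104, adjusted p = 0.0766). A pseudogene matches 72.5% of the Sod1 mRNA. Sod2 reads were 0.703 ± 0.0487 of Sod1 reads in Control and 1.82 ± 0.0549 times them with toyocamycin.

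Gene pairs split by compartment did not follow 1 pattern. Of the 4 genes above for a mitochondrial enzyme with a cytosolic relative, Sod2 was higher, Prdx3 and Txnrd2 were lower and Txn2 did not pass. The coefficient of variation of the 35 genes ranged from 0.15% to 22.5% in Control, with a median of 5.8%, and from 1.18% to 60.1% with toyocamycin, with a median of 5.34%. Mgst3 had the widest spread in both groups, and with toyocamycin Txnrd2 (29.15%) and Nqo1 (21.15%) followed it.

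**Figure D4:**
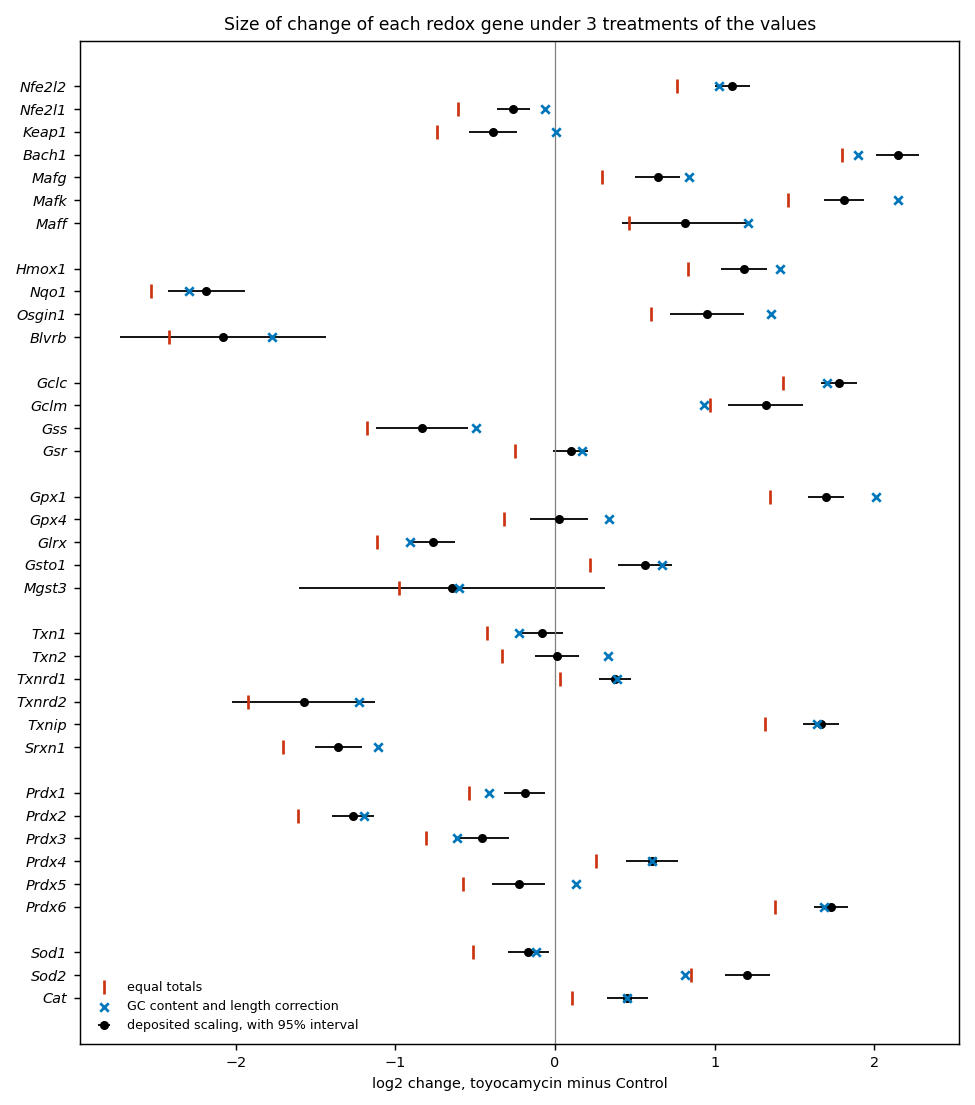
Black points and bars give the log2 change (toyocamycin minus Control) with its 95% interval on the deposited scaling, red ticks the value with equal totals and blue crosses the value after GC content and length correction. Genes with large changes such as Bach1 (2.15) and Nqo1 (−2.19) keep their side of 0 under all 3, while Gsr, Gpx4 and Txn2 change side with equal totals and Keap1 and Prdx5 after the correction.

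A further 89 genes of the same pathways were listed by function, and 87 of them had enough reads to be tested. Of these, 25 were higher, 34 lower and 28 did not pass, with a median log2 change of −0.314. Of all genes tested, 65.9% were called, 32.8% higher and 33.1% lower, so the share of these genes called lies near the background. Among 30 other NRF2 pathway genes, 13 were higher and 9 lower. In the first set were the iron storage genes of ferritin and an exporter: Fth1 and Ftl1 rose from 13400 ± 551 to 26870 ± 1073 and from 6893 ± 192 to 12470 ± 280, and Abcc1, an exporter of glutathione conjugates, rose from 3251 ± 189 to 6737 ± 153. Reads of Ftl1 are uncertain, because 13 other genes carry near-identical sequence. Sqstm1, whose product p62 binds KEAP1, rose 2.1-fold, and Cul3, the scaffold of the ligase that marks NRF2, rose 2.95-fold from 4032, 4043 and 4193 to 11490, 12390 and 12360 (log2 change 1.56, SE 0.051, adjusted p = 1.3e-16). Bach2, a relative of Bach1, had 3.62, 0 and 0 normalised reads in Control, where a count of 0 allows up to 2.63, and 50.2, 61.8 and 32.8 with toyocamycin; it passed as higher (adjusted p = 1.15e-06), with no fold given against so few reads.

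Of 4 pentose phosphate pathway genes in the list, the route that supplies much cytosolic NADPH, 3 were lower, against 33.1% of all genes. G6pdx, the entry enzyme, fell 2.11-fold from 3222 ± 110 to 1526 ± 87.1, Pgd fell 1.63-fold and Tkt, transketolase, fell 2.56-fold from 8032 ± 258 to 3136 ± 57.7, while Taldo1, transaldolase, passed as higher by a log2 change of 0.176 that turned to −0.173 with equal totals. Nnt, which makes mitochondrial NADPH and is known to be disrupted in some C57BL/6 substrains, fell 4.03-fold from 892.5, 917.1 and 918 to 210, 200.7 and 265.9 (log2 change −2.02, SE 0.112, adjusted p = 7.89e-13). The first 4 of these genes were singled out after their values were seen.

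In the list of other glutathione genes, 3 of 36 tested were higher and 17 lower, with a median of −0.794, where 32.8% of all genes were higher and 33.1% lower. Glutathione S-transferases made up 16 of the 36. Gsto1, which was higher, belongs to the 35 genes and is not in this tally. None of the 16 was higher by limma, 8 were lower, and 15 had a negative log2 change (median −0.838). The count of higher genes was also 0 at an unadjusted p under 0.05, by edgeR (10 lower of 14) and by DESeq2 (8 lower of 16), but 1 with quantile normalization. These 16 genes were singled out after their values were seen, and their calls read against the same background. Gstm1, the main mu-class transferase by reads here, fell 7.26-fold from 2085, 2164 and 2172 to 302.4, 266.8 and 315.7 (log2 change −2.86, SE 0.083, adjusted p = 2.53e-17). Its reads are uncertain, since a pseudogene matches 51% of its mRNA. Gstm4 fell 11.4-fold, from 290 ± 11.3 to 25.5 ± 11.5, and Gstp3 5.79-fold, from 194 ± 11.4 to 33.5 ± 15. Gstp1 fell 2.01-fold, but it shares 86.1% of its mRNA with near-identical copies, Gstp2 among them. Chac1, which degrades glutathione, fell 8.95-fold to 10.6, 4.24 and 8.5 normalised reads, from 43.5, 73.7 and 91.3, and Oplah, which recycles its product 5-oxoproline, fell 2.89-fold. From the NRF2 list, Slc7a11, the cystine carrier, fell 2.06-fold from 63.4 ± 9.7 to 30.8 ± 11.1 (adjusted p = 0.00869), and its partner chain Slc3a2 rose 1.74-fold from 4909 ± 263 to 8543 ± 642.

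Of 21 other thioredoxin and antioxidant genes, 9 were higher and 8 lower, where 32.8% of all genes were higher and 33.1% lower. Arrdc4, the arrestin-domain relative of Txnip that is known to share its control by MondoA, rose 9.61-fold from 139.5, 109.7 and 139.5 to 1284, 1284 and 1168 (log2 change 3.26, SE 0.116, adjusted p = 5.29e-16). The MondoA gene Mlxip rose 1.85-fold from 2210 ± 142 to 4085 ± 215, and its partner Mlx fell 2.1-fold from 1707 ± 46.5 to 811 ± 55.3. The sestrin genes, stress-induced inhibitors of mTORC1 that also take part in peroxiredoxin regeneration, rose in all 3 cases: Sesn2 3.47-fold from 606 ± 66.8 to 2101 ± 58.3, Sesn1 2.85-fold and Sesn3 1.58-fold. Each of the 3 sestrin genes kept its direction and call in all 18 alternatives, as did the 3 small MAF genes. Selenow, a small selenoprotein, fell 4.2-fold from 3394, 3529 and 3633 to 785.8, 929.9 and 798.9 (log2 change −2.07, SE 0.07, adjusted p = 2.44e-16).

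**Figure D5:**
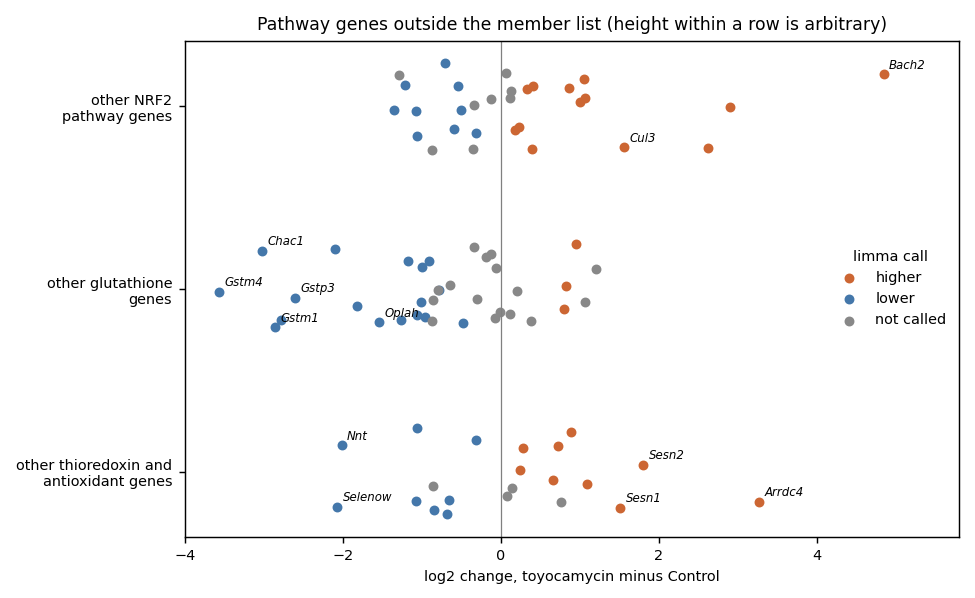
Each point is 1 of the 87 tested pathway genes outside the 35, placed by its log2 change (toyocamycin minus Control) and coloured by its limma call, with labels on the 12 called genes of largest change whose mean was at least 20 and whose groups did not overlap. The glutathione row holds 17 lower and 3 higher genes, and Arrdc4 (3.26) stands far to the right in the thioredoxin row.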

How the data were processed

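RNA was sequenced in 6 samples, 3 Control and 3 toyocamycin. Libraries followed a standard Illumina protocol on TRIzol RNA, per the labels' protocols. The submitters used cutadapt 4.7, FastQC and build mm10, with the aligner, counter, strand setting and annotation not given in the sources used here, per the submitters' processing notes. The deposited values carry the name FPKM but are a normalised signal: in each sample 100% are whole multiples, within 0.01 reads, of what 1 read is worth, equal for all genes. Within groups, samples differed beyond counting noise, with chi-square over its degrees of freedom at 3.96 to 7.76.

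Values were tested as log2(value + 1) in the 16223 genes with a mean of at least 1, by limma 3.58.1 in R 4.3.3. The test was two-sided and used a variance trend, and p-values were Benjamini-Hochberg adjusted over these genes, with a threshold of 0.05. The pseudocount understates changes of low genes. Folds are ratios of group means, and ± gives the SD over 3 samples. The edgeR 4.0.16 quasi-likelihood test on recovered reads called 4980 genes higher and 5329 lower of 12949; DESeq2 1.42.0 was a further alternative. GC content and length, from 1 GENCODE M21 transcript per gene, were corrected per sample by splines with 5 degrees of freedom each. Copies were alignments of at least 100 bases at 95% identity (BLAST 2.17.0), whose reads the counting may have lost or shared. The fit was also run on simulated data in which few genes changed, unlike here, so that run does not bear on the choice of scaling.

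The members and gene lists were chosen with earlier results of these data known. All members are named; of the other pathway genes, the rule named the 12 called genes of largest change with groups that do not overlap and a mean of at least 20, and further genes were named after their values were seen.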

Additional observations from a re-analysis of the deposited data

How the results depend on the processing

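Higher and lower counts of the 35 genes, of the other pathway genes and of all genes stayed within 1.5 times of the reported ones in each of the 18 alternatives run. Leaving out 1 sample gave 17 higher redox genes each time and 10 to 13 lower ones. Directions that turned belong to small changes. With equal totals, Gsr (−0.251), Gpx4 (−0.322) and Txn2 (−0.334) were lower, and with quantile normalization Gsr (−0.383), Txn2 (−0.262) and Txnrd1 (−0.114). That fall of Txnrd1 was called (limma adjusted p = 0.00249), opposite to its reported call as higher. TMM scaling gave Gpx4 −0.026 and Txn2 −0.038, and edgeR −0.011 and −0.025. GC content and length correction gave Keap1 0.006 and Prdx5 0.129, also with the replicate block. Gpx4 was −0.04 without Control replicate 2 and −0.031 without toyocamycin replicate 2, and Txn2 −0.027 without Control replicate 1 and −0.027 without toyocamycin replicate 2. Over the 6 such omissions Gpx4 ranged from −0.04 to 0.109 and Txn2 from −0.027 to 0.059. The cause was not tested. With the replicate number as a block, 17 redox genes were higher and 13 lower, so the count did not move. Deviations of same-numbered samples correlated at −0.03, 0.052 and −0.089, and not every sample correlated best with its own number. No pairing by number was seen, but with 3 samples per group this check cannot show that the samples were unpaired. Depth limits Mgst3 and Blvrb, which had 11 to 36 and 18 to 122 reads per sample.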
